A study of Mus musculus with 18 samples.

Results

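Mouse embryo fibroblasts with an extra chromosome 13 (Ts13) were set directly against mouse embryo fibroblasts with an extra chromosome 16 (Ts16). The comparison used every array titled Ts13 (4) or Ts16 (3), 7 of the 18 expression arrays of the study, together with the 7 control arrays (Wt, normal chromosomes) that carry the same first number in their titles. The other arrays were 2 further controls and 1 array each of cells with an extra chromosome 1 or 19, and they entered the shared estimate of the spread, the filter on low values and the choice of probe set. The 2 further controls also entered the zero of the chromosome shifts. All cells had been grown for 2 passages in the same medium, RNA was isolated with Trizol, and cRNA for each array was made from 5 ug of it. The labels name no strain, sex or embryonic age, and do not say how the extra chromosome arose or whether each line came from its own embryo. The p-values therefore cover only the spread among these cultures, part of which may be technical.

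An autosomal trisomy adds 1 copy of every gene of a chromosome, so that the 2 trisomies compared here each carry the imbalance that the other lacks. Genes of the extra chromosome are therefore expected to differ by about the ratio of copies, 1.5-fold or 0.58 on the log2 scale, on which 1 is a doubling. Genes on the remaining autosomes have the same number of copies in both. For chromosomes X and Y this is not known, since the labels name no sex. Mouse chromosome 16 shares many of its genes with human chromosome 21. Fibroblasts make collagen and other matrix, secrete growth factors, and divide in culture until stress or senescence slows them.

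No first title number occurs in both trisomies. The labels do not say what this number stands for, so in the direct comparison the trisomy and whatever the first number marks cannot be told apart. For that reason each gene was also read after subtracting the controls of the same first number. Ts13 replicate 1 has control replicate 4, Ts13 replicates 2 and 3 have control replicates 5 and 6, and Ts13 replicate 4 has control replicate 7. Ts16 replicates 1 and 3 have control replicates 1 and 3, and Ts16 replicate 2 has control replicate 2.

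A set of 3 arrays stood apart from the rest in RNA quality. The signal of the 3' end of Gapdh over its 5' end, which grows as RNA is degraded, was 6.94 and 5.57 on the log2 scale for Ts13 replicates 3 and 4 and 6.55 for Ts16 replicate 1, against -0.20 to 1.41 on the other 15 arrays. Over the 7382 genes tested, Ts16 replicate 1 correlated at r = 0.93 and 0.94 with Ts13 replicates 3 and 4, above its 0.89 and 0.82 with the other Ts16 arrays; this is a description over genes, which are not replicates. The controls of these 3 arrays had intact RNA, so that subtracting them leaves the 3' bias in place. The main results are therefore also given for the intact arrays alone, Ts13 replicates 1 and 2 and Ts16 replicates 2 and 3. All 12 fibroblast markers were above the filter (mean log2 value of at least 4 over 18 arrays) and no erythroid marker was. All 9 smooth muscle markers were also above it, with Acta2 highest at a mean of 15.62, as were 4 of 7 neural and glial markers. Each remaining list had 1 to 3 markers above it. The macrophage markers averaged 2.80 to 3.11 on Ts13 replicates 1 to 3 and 2.78 to 2.91 on Ts16 arrays but 5.48 on Ts13 replicate 4, where 10 of 13 markers reached 4.

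The whole of chromosome 13 was higher in Ts13 and the whole of chromosome 16 higher in Ts16. The mean of the 277 tested genes of chromosome 13, relative to the other autosomes and to the controls, stood at 0.68, 0.57, 0.85 and 0.99 on the log2 scale in Ts13 replicates 1 to 4, and at 0.39, 0.12 and -0.08 in Ts16 replicates 1 to 3. The groups did not overlap, and their means of 0.77 ± 0.19 (SD, n = 4) and 0.14 ± 0.24 (SD, n = 3) differed by 0.63, or 1.55-fold. The highest Ts16 value and the highest pair of Ts13 values belonged to the 3'-biased arrays. For the 243 genes of chromosome 16 the mean was -0.02, -0.07, 0.13 and 0.15 in Ts13 against 0.78, 0.74 and 0.67 in Ts16. These groups were farther apart than the spread within either, at 0.04 ± 0.11 (SD, n = 4) and 0.73 ± 0.06 (SD, n = 3), with a difference of -0.68, or 1.61-fold higher in Ts16. Each exact permutation test (two-sided) gave p = 0.0571, before and after adjustment over both, which is the smallest value that 4 arrays against 3 can give. On the other chromosomes the Ts13 and Ts16 arrays overlapped.

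**Figure D1:**
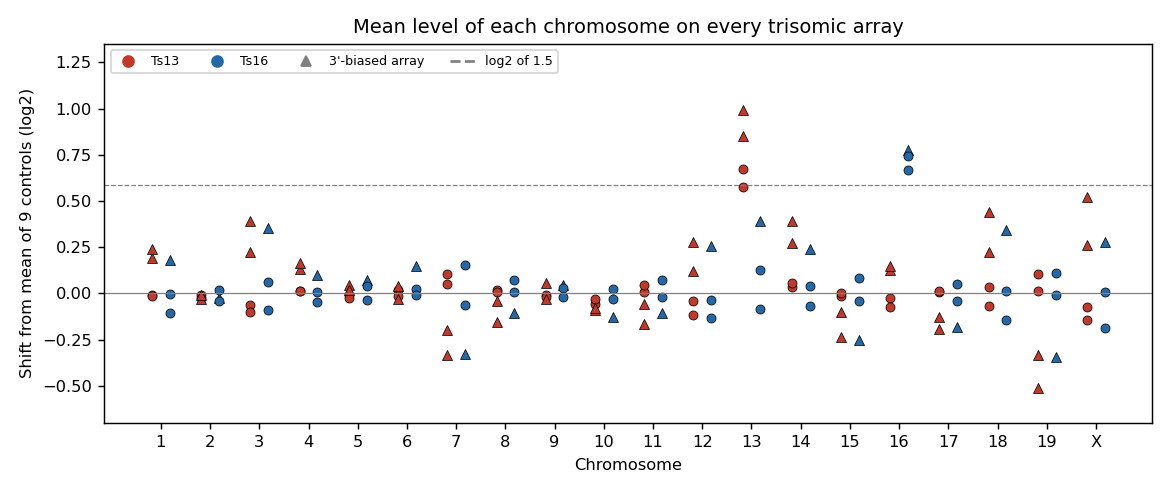
Mean log2 level of the tested genes of each chromosome (x axis) relative to the other autosomes and to the mean of the 9 controls (y axis), with 1 point per Ts13 (red) or Ts16 (blue) array and triangles for the 3'-biased arrays. Red points lie apart from blue ones at chromosome 13 (0.57 to 0.99 against -0.08 to 0.39) and blue points lie apart from red ones at chromosome 16 (0.67 to 0.78 against -0.07 to 0.15), while on the other chromosomes they mix.

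The intact arrays alone differed by 0.60 for chromosome 13 and -0.75 for chromosome 16, and subtraction of each array's own controls gave 0.69 and -0.70. The difference extended along both chromosomes. With the tested genes of a chromosome divided into 6 runs in their order along it, the median difference of a run lay between 0.46 and 0.78 on chromosome 13 and between -0.77 and -0.50 on chromosome 16. In every run at least 80.0% of the genes differed in the direction of the copy number.

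**Figure D2:**
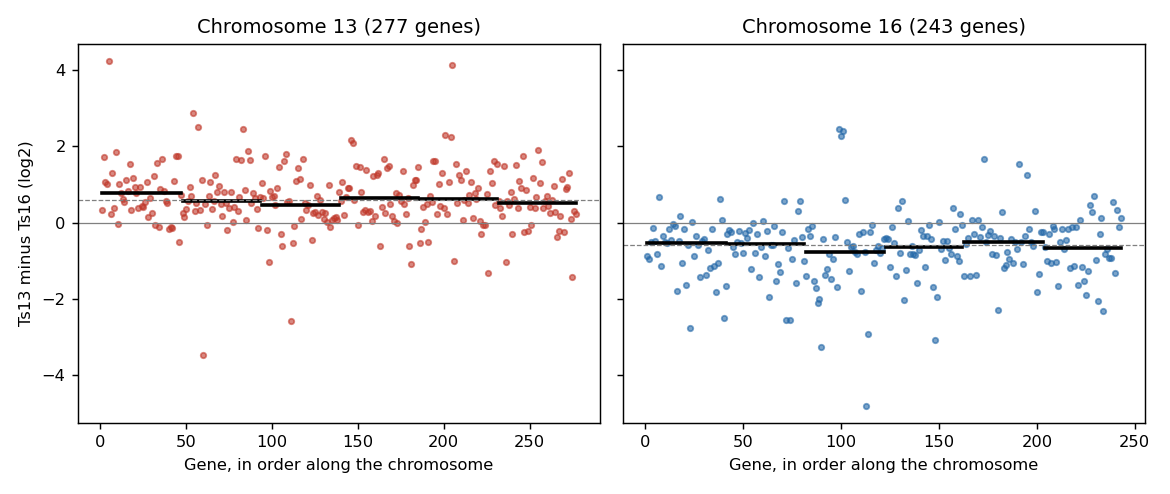
Difference Ts13 minus Ts16 in log2 units (y axis) for each tested gene of chromosome 13 (left) and chromosome 16 (right) in order along the chromosome (x axis), with the median of each of 6 runs as a black bar and log2 of 1.5 in either direction as a dashed line. The bars stay between 0.46 and 0.78 on the left and between -0.77 and -0.50 on the right.

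Gene by gene, 179 of 7382 tested genes (2.42%) passed the threshold of an adjusted p under 0.05 in limma over all arrays, 98 higher in Ts13 (1.33%) and 81 lower (1.1%), and 1312 had an unadjusted p under 0.05. The median of all tested genes was 0.03. Of the 277 genes of chromosome 13, 32 (11.6%) passed, 31 of them higher in Ts13 (11.2%) and 1 lower (0.361%), and 84.8% of the 277 were higher, with a median difference of 0.58. Of the 243 genes of chromosome 16, 33 (13.6%) passed, all lower in Ts13, and 34 of the 243 were higher, with a median of -0.59. Of the 6862 genes elsewhere, 114 (1.66%) passed, 67 higher (0.976%) and 47 lower (0.685%). The mean of all probe sets of a gene in place of the brightest one turned the overall split, to 41.2% higher of 148 genes against 54.7% of 179. Single arrays moved it too, to 38 higher and 89 lower without Ts16 replicate 3 and to 264 higher and 88 lower without Ts16 replicate 1. The count rested on single arrays: it was 26 without Ts16 replicate 2, 66 without Ts13 replicate 4, 116 without Ts13 replicate 3 and 352 without Ts16 replicate 1. Of the 179 genes, 21 passed whichever of the 7 arrays was left out and 5 passed under none of the 7 omissions. The count also rested on the spread shared with the other arrays, among them the controls, which all had intact RNA. With the 7 compared arrays alone, which left 5 residual degrees of freedom, 2 genes passed in limma and neither was among the 179. With 14 arrays in 3 groups 112 passed, 110 of them among the 179.

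Among the genes of chromosome 13, Clptm1l, whose product is a membrane protein of the endoplasmic reticulum, had the lowest adjusted p. Its log2 value was 13.16, 13.50, 12.98 and 13.22 in Ts13 and 12.15, 12.19 and 11.91 in Ts16. Every Ts13 array lay above every Ts16 array and the controls of both lay between, at means of 12.43 and 12.44. The difference was 1.13 with a standard error of 0.14 (limma, adjusted p = 0.00468), 1.14 with controls subtracted and 1.28 in the intact arrays (limma, adjusted p = 0.023). Clptm1l, Vps41 (a vesicle tethering protein; 1.22) and 4833439L19Rik (0.99) passed under each of the 7 omissions. Vps41 falls outside the naming rule and was chosen after its values were seen.

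Far larger differences than the copy ratio were seen for Edil3, a secreted integrin ligand, and Akr1c14, a steroid-reducing enzyme of the aldo-keto reductase family. Edil3 had log2 values of 11.06, 8.50, 10.56 and 11.75 in Ts13 and 7.41, 5.81 and 5.76 in Ts16. The groups did not overlap, Ts13 lay above its controls (8.58 on average) on 3 of 4 arrays and Ts16 below its own (7.51) on all 3, and the difference was 4.14 (limma, adjusted p = 0.0137; 4.00 in the intact arrays, adjusted p = 0.0608). Akr1c14 differed by 4.24 (limma, adjusted p = 0.0137; 4.10 in the intact arrays, adjusted p = 0.0537), and since near-identical members of its family lie beside it, its probe set may read more than 1 gene. Without Ts16 replicate 2 neither passed in limma, with adjusted p = 0.0597 for Edil3 and 0.0654 for Akr1c14. Other genes of chromosome 13 past the threshold were closer to the copy ratio, from 0.69 upwards with a median of 1.13 for all 31. They included Pfkp, the platelet form of the glycolytic enzyme phosphofructokinase (1.86; 2.24 in intact arrays), the kinase gene Plk2 (1.59), Epdr1 (1.56), Sgtb, a co-chaperone (1.75), Bloc1s5, a subunit of a complex for lysosome-related organelles (1.67), Rasa1, a Ras GTPase-activating protein (1.06), and Glrx, glutaredoxin (1.63). Pfkp, Plk2, Epdr1, Clptm1l and 4833439L19Rik also passed in the intact arrays. Pfkp and Sgtb lost the threshold only without Ts16 replicate 2 (limma, adjusted p = 0.0817 and 0.0644), while Plk2, Epdr1, Bloc1s5, Rasa1 and Glrx passed under 2 to 4 of the 7 omissions. Of 23 known residents of the chromosome listed for this work, 18 were higher, 3 of them past the threshold (Pfkp, Rasa1 and Glrx), and the median was 0.70, beside 84.8% higher and 11.2% called higher of all 277.

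Of the 277 tested genes of chromosome 13, 42 were lower in Ts13, against their copy number, and 1 of them passed the threshold. Serpinb6b, a serine protease inhibitor, was at 4.20, 5.17, 6.54 and 6.11 in Ts13 and at 9.76, 8.34 and 8.87 in Ts16, a difference of -3.49 (limma, adjusted p = 0.0406). All Ts13 arrays were lower than all Ts16 arrays, but the controls of the Ts13 numbers were also lower than those of the Ts16 numbers, by 2.63, and the difference after subtracting them was -0.86 (limma, adjusted p = 0.972). It passed under 1 of the 7 omissions, the one without Ts13 replicate 3. Serpinb6a, a close paralog on the same chromosome chosen after its values were seen, differed by 0.69 the other way (limma, adjusted p = 0.0424), also under 1 omission, and probe sets of such relatives may share signal.

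On chromosome 16 a gene with a small spread was Atg3, the conjugating enzyme that attaches lipid to LC3 in autophagy. Its log2 value was 12.14, 12.25, 12.30 and 12.59 in Ts13 and 13.27, 13.07 and 13.23 in Ts16. Ts13 stayed near the controls (12.23 and 12.25 for the numbers of either trisomy) while Ts16 lay above them without overlap, and the difference was -0.87 with a standard error of 0.14 (limma, adjusted p = 0.0115; -0.95 in the intact arrays, adjusted p = 0.0407). B4galt4, a galactosyltransferase, was at 2.58, 2.61, 2.56 and 3.46 in Ts13 and at 6.04, 5.91 and 5.69 in Ts16. It was under the filter level on all Ts13 arrays and above it on all Ts16 arrays, a difference of -3.08 (limma, adjusted p = 0.00936; -3.21 in the intact arrays, adjusted p = 0.0506). Adamts1, a secreted metalloprotease that cuts proteoglycans, was at 11.15, 12.23, 11.85 and 11.11 against 13.53, 13.20 and 13.51, a difference of -1.83 (limma, adjusted p = 0.0137) that became -2.01 with controls subtracted and -1.66 in the intact arrays (limma, adjusted p = 0.0925). Atg3, B4galt4 and Adamts1 passed under each of the 7 omissions.

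Apod, an apolipoprotein, showed the largest difference of the genes called on chromosome 16 and a wide spread. It was at 2.53, 2.58, 3.30 and 2.63 in Ts13 and at 4.97, 9.25 and 8.49 in Ts16, where the 3'-biased replicate 1 was the low one. The groups did not overlap and the difference was -4.81 (limma, adjusted p = 0.0293; -6.31 in the intact arrays, adjusted p = 0.0537), but it passed under 2 of the 7 omissions, with an adjusted p of up to 0.161. After Apod and B4galt4 the next 4 in size were Rpl39l, a ribosomal protein paralog (-2.78), Gnb1l, a gene of the region deleted in DiGeorge syndrome (-2.56; -2.55 in the intact arrays, limma, adjusted p = 0.0495), Nde1, a dynein regulator of the mitotic spindle (-2.52), and Chaf1b, a subunit of the chromatin assembly factor that follows replication forks (-2.33). All of them lost the threshold without Ts16 replicate 2, Rpl39l and Nde1 also without Ts13 replicate 4, with adjusted p up to 0.114 in limma. Cpped1, a phosphatase, differed by -1.19 and passed in the intact arrays as well (-1.43; limma, adjusted p = 0.0407). Of 34 listed residents of the chromosome 30 were lower in Ts13, 8 of them past the threshold, with a median of -0.70, beside 209 lower and 33 past the threshold (13.6%) of all 243 tested genes of the chromosome. The 8 were Atg3, Adamts1, Ranbp1, Pdia5, Vps26c, Adamts5, Crkl and Atp5o.

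**Figure D3:**
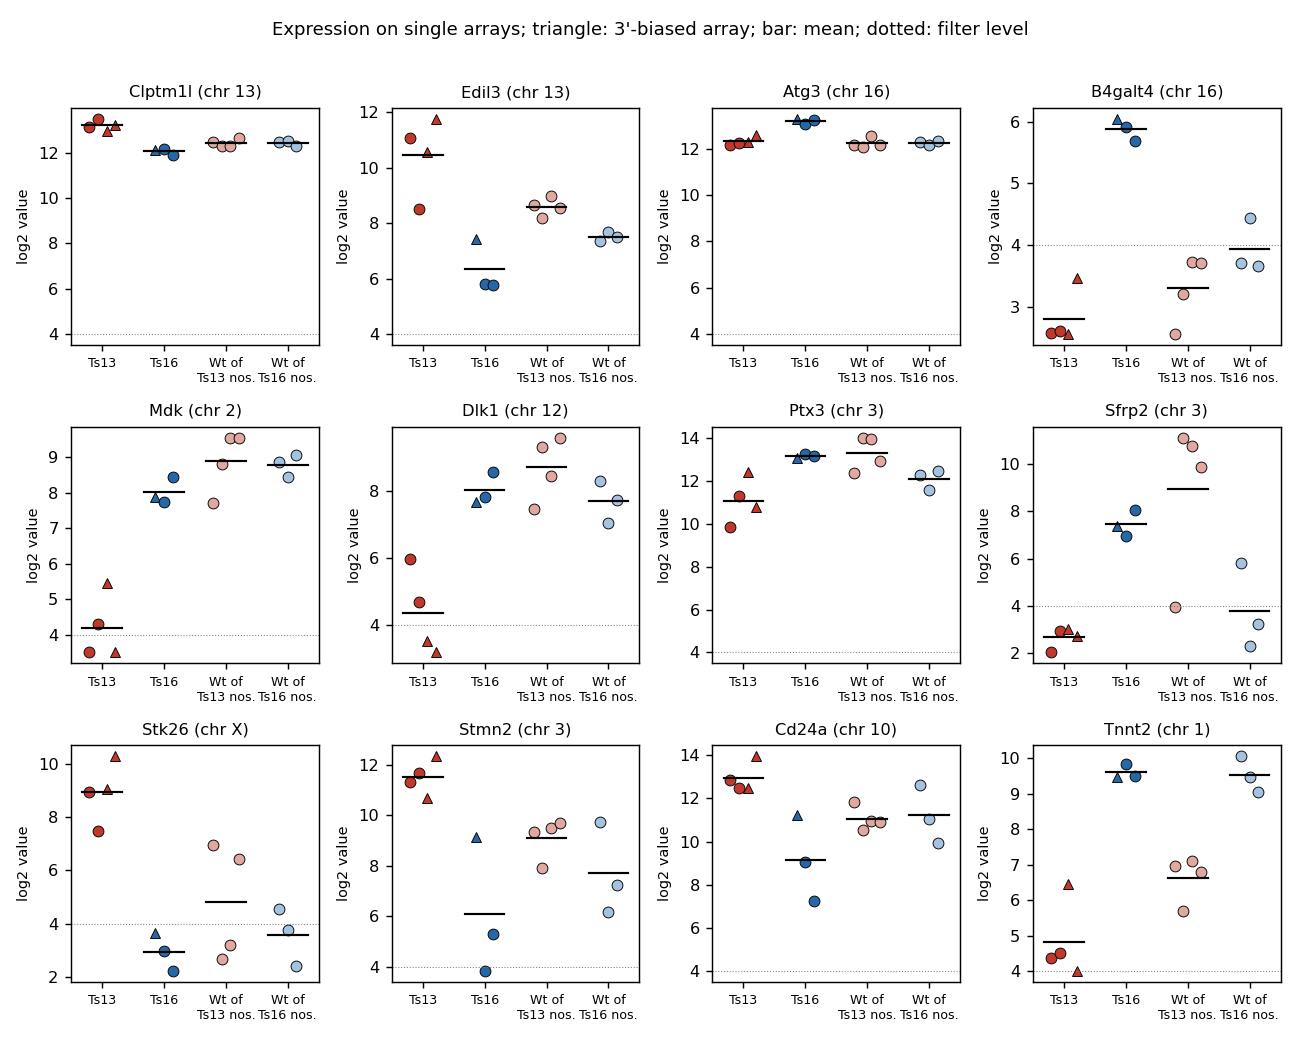
Log2 value (y axis) of 12 genes on single arrays of Ts13 (4, red), Ts16 (3, blue) and the controls of the Ts13 numbers (4, pale red) and Ts16 numbers (3, pale blue), with triangles for 3'-biased arrays, bars for group means and a dotted line at the filter level of 4; the y axes differ and do not start at 0. Clptm1l and Atg3 show small spreads, Mdk is low only in Ts13 (3.50 to 5.45), and for Tnnt2 the controls of the Ts16 numbers are as high as Ts16 (mean 9.53).

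Away from both extra chromosomes the gene with the lowest adjusted p among those lower in Ts13 was Mdk on chromosome 2, midkine, a heparin-binding growth factor of embryonic tissues. It was at 3.50, 4.32, 5.45 and 3.50 in Ts13 and at 7.89, 7.75 and 8.45 in Ts16. All 4 Ts13 arrays lay below all Ts16 arrays and below all of their own controls, which ranged from 7.70 to 9.55, while Ts16 was closer to its controls, at 8.43 to 9.07. The difference was -3.83 with a standard error of 0.53 (limma, adjusted p = 0.00637), -4.19 in the intact arrays (limma, adjusted p = 0.0262) and -3.94 with controls subtracted, where it did not pass (limma, adjusted p = 0.131). Mdk passed under each of the 7 omissions. Its relative Ptn, pleiotrophin, differed by -0.66 (limma, adjusted p = 0.559), and of 9 tested genes for these growth factors and their receptors 7 were lower, with Mdk as the 1 call and a median of -0.66 (0.04 in the intact arrays, -0.21 without Ts16 replicate 2). Beside this, 3247 of the 6862 genes elsewhere were lower and 0.685% were called lower.

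Heph, the copper-dependent ferroxidase hephaestin on chromosome X, was at 2.86, 2.95, 4.13 and 4.12 in Ts13 and at 8.18, 6.05 and 6.23 in Ts16. The groups did not overlap, Ts13 lay at the level of its controls (3.50) and Ts16 above its own (4.09), and the difference was -3.31 (limma, adjusted p = 0.0137; -3.24 in intact arrays). Tlcd2 (-2.13) and the phosphatase gene Ctdspl (-1.65) were also lower in both sets, as was Timp3, an inhibitor of matrix metalloproteases (-2.04; -2.02 in the intact arrays, limma, adjusted p = 0.0407). Heph and Tlcd2 passed under each of the 7 omissions, and Ctdspl and Timp3 under all but that of Ts16 replicate 2 (limma, adjusted p = 0.0553 and 0.0884). Adh1, a class I alcohol dehydrogenase that can oxidise retinol, was at 3.76, 4.05, 5.83 and 4.09 against 6.91, 7.95 and 9.24. It differed by -3.60 (limma, adjusted p = 0.0225; -4.69 in the intact arrays, adjusted p = 0.0495). Rerg, a small GTPase of the Ras family, was at 1.85, 3.30, 6.34 and 5.22 against 8.11, 8.37 and 7.99, with the 3'-biased arrays the highest in Ts13. It differed by -3.98 (limma, adjusted p = 0.0418; -5.60 in the intact arrays, adjusted p = 0.0407). Adh1 passed under 3 and Rerg under 1 of the 7 omissions.

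Dlk1, an imprinted transmembrane inhibitor of adipocyte differentiation on chromosome 12, was at 5.97, 4.69, 3.52 and 3.17 in Ts13 and at 7.67, 7.82 and 8.55 in Ts16. Ts13 fell below the range of Ts16 on every array and below its controls, which averaged 8.70. The difference was -3.67 (limma, adjusted p = 0.0169), -4.68 with controls subtracted and -2.85 in the intact arrays (limma, adjusted p = 0.141), so that the 3'-biased Ts13 arrays were the lowest; it passed under 4 of the 7 omissions. Of the 14 imprinted genes tested 11 were lower and 3 higher in Ts13, with Dlk1 as the 1 call and a median of -0.40, -0.48 with controls subtracted and -0.22 without Ts13 replicate 4. Of the 6862 genes outside chromosomes 13 and 16, 3247 were lower and 0.685% were called lower. The list mean was 10.79 to 11.16 in Ts13 and 11.40 to 11.99 in Ts16. The rule also named, among the large differences in this direction, Tnnt2, cardiac troponin T (-4.77), Pde4b, a cyclic AMP phosphodiesterase (-3.67), Kcne4, a potassium channel subunit (-3.43), Clca3a1 (-3.40) and Vdr, the vitamin D receptor (-3.37). For Tnnt2 the controls of the Ts13 numbers were themselves 2.89 below those of the Ts16 numbers, and the difference with controls subtracted was -1.88 (limma, adjusted p = 0.75). Of 10 skeletal and cardiac muscle markers 8 were under the filter level, among them Myod1 and Myog. Beside Tnnt2, Acta1 was above it, at 12.20, 12.48, 9.72 and 10.55 in Ts13 and 11.34, 12.32 and 11.59 in Ts16. Actc1 and Mylpf were highest on Ts16 replicate 1, at 5.57 and 6.33. On Ts16 replicates 2 and 3 Actc1 (2.68 and 2.71) and Mylpf (3.30 and 3.12) were under the filter level. Mylpf was also above that level in the controls of the Ts16 numbers, at 5.81, 4.51 and 4.33, and below it in those of the Ts13 numbers. The part of these cells in the Tnnt2 difference was not tested. Tnnt2 lost the threshold without Ts16 replicate 2 (limma, adjusted p = 0.0654), and Pde4b, Kcne4, Clca3a1 and Vdr passed under 3 of the 7 omissions each.

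Stk26 on chromosome X, a kinase of the Golgi and the cytoskeleton, was called higher in Ts13. It was at 8.93, 7.46, 9.07 and 10.29 in Ts13 and at 3.67, 2.98 and 2.23 in Ts16. All Ts16 arrays lay under the filter level and all Ts13 arrays far above it, a difference of 5.98 with a standard error of 1.13 (limma, adjusted p = 0.0145; 5.59 in the intact arrays, adjusted p = 0.0986). Its controls were uneven, from 2.67 to 6.95 for the Ts13 numbers, and the difference after subtracting them was 4.75 (limma, adjusted p = 0.248). Stmn2, a tubulin-binding protein best known from neurons, was at 11.32, 11.66, 10.70 and 12.35 against 9.13, 3.83 and 5.29. The 3'-biased Ts16 replicate 1 stood closer to Ts13 than the other Ts16 arrays did, and the difference was 5.43 (limma, adjusted p = 0.0155) and 6.93 in the intact arrays (limma, adjusted p = 0.0319). The neural and glial list, of which Stmn2 is a member, averaged 6.22 to 7.02 in Ts13 and 5.17 to 5.87 in Ts16, with 4 of 7 markers above the filter and Gfap and Sox10 at or below 2.71 on these arrays; its part in the result was not tested. Stk26 lost the threshold without Ts16 replicate 2 and Stmn2 without Ts16 replicate 2 or 3, with adjusted p up to 0.0654 and 0.0985 in limma.

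Cavin4, a coat protein of caveolae on chromosome 4, had the lowest adjusted p among the genes of other chromosomes that were higher in Ts13, together with Cystm1. It was at 6.85, 6.01, 6.51 and 7.22 against 4.62, 3.18 and 2.53. The difference was 3.20 (limma, adjusted p = 0.00637), 3.57 in the intact arrays (limma, adjusted p = 0.023) and 2.68 with controls subtracted. Cystm1, a small membrane protein, was at 8.27, 8.33, 8.79 and 8.97 against 6.90, 6.49 and 6.44. Both groups of controls lay with Ts16, at 6.56 and 6.72, and the difference was 1.98, or 2.14 with controls subtracted (limma, adjusted p = 0.226). Sgk1, a kinase that responds to serum and glucocorticoids (2.14), Mfge8, a secreted protein that marks dying cells for uptake (1.34), and Abca3, a lipid transporter (3.50), passed under each of the 7 omissions as well. Cd24a, a surface sialoglycoprotein, was at 12.87, 12.49, 12.50 and 13.96 against 11.24, 9.04 and 7.22. It differed by 3.79 (limma, adjusted p = 0.0169; 4.55 in the intact arrays, adjusted p = 0.0402). Retreg1, a receptor for the autophagy of endoplasmic reticulum (5.06; 6.14 in the intact arrays), and Fam3c, a secreted protein (1.21), also passed in both sets. Cd24a, Retreg1 and Fam3c each passed under 4 of the 7 omissions. Other large differences in this direction were Lipg, endothelial lipase (4.56), Tmem87a (4.09), Gjb2, a gap junction protein (3.82), and Nipsnap1 (3.57). Lipg passed under 6, Gjb2 under 5, Tmem87a under 2 and Nipsnap1 under 1 of the 7 omissions.

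After subtraction of the controls of the same first number, 1 of 7382 genes (0.0135%) passed in limma, and 482 had an unadjusted p under 0.05. That gene was Ptx3 on chromosome 3, pentraxin 3, a secreted pattern recognition protein that fibroblasts make on inflammatory stimulation. It was at 9.86, 11.28, 12.41 and 10.77 in Ts13 and at 13.10, 13.27 and 13.17 in Ts16, while the controls stood at 12.36, 14.03, 13.96 and 12.94 for the Ts13 numbers and 12.30, 11.59 and 12.45 for the Ts16 numbers. Ts13 lay below its controls by 2.24 on average and Ts16 lay above its own by 1.06, which gave a difference of differences of -3.30 (limma, adjusted p = 0.0403). The intact arrays gave -3.79 and kept the call. In the direct comparison Ptx3 differed by -2.10 (limma, adjusted p = 0.0578). The call was lost under 12 of 14 omissions of a single array, controls included, and held without Ts13 replicate 2 or Ts13 replicate 3.

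Larger differences of differences did not pass. Sfrp2, a secreted antagonist of Wnt ligands, was at 2.00, 2.93, 2.98 and 2.72 in Ts13 and at 7.38, 6.98 and 8.06 in Ts16, with controls from 3.94 to 11.14 and from 2.26 to 5.81. The trisomic groups did not overlap, but the controls of either group spread over more than 3 units, and the value of -9.99 had an adjusted p of 0.131 in limma. Mest, an imprinted gene, was at -3.79 with controls subtracted (limma, adjusted p = 0.131) and at -1.23 without. Inhba on chromosome 13, a subunit of activin, was at 2.10 and 1.07 in the same order (limma, adjusted p = 0.226 and 0.27), and Col8a1 on chromosome 16, a short-chain collagen, at -1.70 and -0.85 (limma, adjusted p = 0.226 and 0.201). The medians of chromosomes 13 and 16 changed little, to 0.65 and -0.63, although no gene of either passed.

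Of the 114 genes called on other chromosomes in the direct comparison, all 114 had the same sign with controls subtracted and 96 kept at least 0.5 of the size. In the remaining 18 the controls alone differed in the same direction by at least 0.5 of the size, as in Tnnt2. This count follows from the 96, since the subtracted value is the direct difference less that of the controls. The same 114 had the same sign in the intact arrays. Both sets of values share the trisomic arrays with the direct comparison, so these counts are descriptions and not independent evidence. The controls of the Ts13 numbers set against those of the Ts16 numbers called 92 genes (1.25%), of which 5 were among the 179 called directly, Ddx6, Ift140, Serpinb6b, Tnnt2 and Zfhx3.

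**Figure D4:**
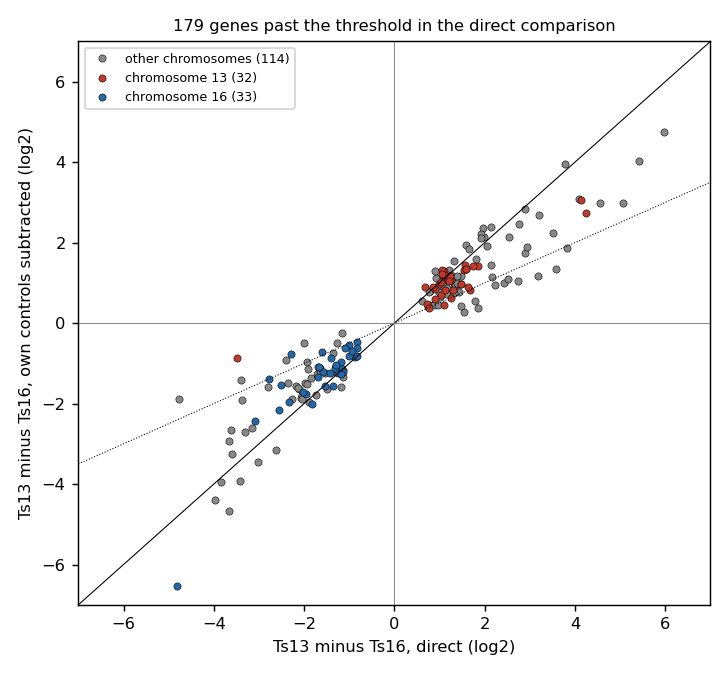
Difference Ts13 minus Ts16 in log2 units without (x axis) and with (y axis) subtraction of the controls of the same first number, for the 179 genes past the threshold in the direct comparison, coloured by chromosome; the solid line marks equal values and the dotted line 0.5 of the size. Most points lie between or near the lines, Serpinb6b and Tnnt2 lie closer to 0 on the y axis (-0.86 and -1.88), and Apod at -6.52 is farther from 0 than in the direct comparison.

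In the intact arrays alone 27 genes (0.366%) passed, 17 higher (0.23%) and 10 lower (0.135%) in Ts13, and 1069 had an unadjusted p under 0.05. The median of all tested genes was 0.12 here, and centring the arrays gave 47 calls with 51.1% higher in place of 63.0%. Of the 27 genes, 24 were among the 179 (88.9% of the 27 and 13.4% of the 179), from the same arrays. The other 3 were Aopep, an aminopeptidase on chromosome 13 (1.40; limma, adjusted p = 0.0407), Cdh10, a cadherin (3.85; adjusted p = 0.0495), and Mmp16, a membrane metalloprotease (3.27; adjusted p = 0.0407). For all 3 the 7 arrays overlapped between the groups when the 3'-biased ones were included. No gene passed in limma when Ts16 replicate 3 was left out (1031 at an unadjusted p under 0.05), and between 1 and 9 passed when another of the 4 intact arrays was. None of the 27 passed under all 4 omissions, and 24 passed under none.

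In 3 lists of cell division genes every tested member had a lower mean in Ts13, with few of them past the threshold. All 36 tested genes for chromosome segregation and cytokinesis had lower means, with a median of -1.20, and 2 of them passed against a background of 0.685% of genes elsewhere that were called lower. They were Racgap1, which organises the central spindle (-1.70; limma, adjusted p = 0.0303), and Bub1b, a spindle checkpoint kinase (-1.84; limma, adjusted p = 0.0416). All 35 tested genes of DNA replication outside the extra chromosomes had lower means, with a median of -0.85 and 2 calls, Pold2, a subunit of DNA polymerase delta (-1.64; limma, adjusted p = 0.0141), and Mcm5, a subunit of the replicative helicase (-2.26; limma, adjusted p = 0.0415). All 13 genes of condensin and cohesin had lower means, with a median of -0.54 and Ncapd2, a condensin subunit, as the 1 call (-3.63; limma, adjusted p = 0.0346). In 7 of the 36 and 7 of the 35 every Ts13 array lay below every Ts16 array, which held for 3.93% of genes elsewhere. In the intact arrays 35 of the 36, 35 of the 35 and 13 of the 13 were lower, and none passed. Members of these lists vary together from array to array, so the counts of lower genes are not counts of independent events.

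The upstream sequences of these 5 called genes are shown to let the reader see the elements by which genes of the cell cycle are commonly timed. They are the 200 bases before the transcription start (first listed start for Pold2, which has more than 1) from RefSeq on assembly GRCm38.p6, written 5' to 3' on the strand of the gene. Capitals mark, on either strand, the CCAAT box (CCAAT), the cell cycle homology region (TTTGAA) and the E2F site (TTCGCGC or TTGGCGC); where 2 matches overlap, as in Mcm5, the run of capitals covers both.
Ncapd2, chr6:125191587-125191786, minus strand: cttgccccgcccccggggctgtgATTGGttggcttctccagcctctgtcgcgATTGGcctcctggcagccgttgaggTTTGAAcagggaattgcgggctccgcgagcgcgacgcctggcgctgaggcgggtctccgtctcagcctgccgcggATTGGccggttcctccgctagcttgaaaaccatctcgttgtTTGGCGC
Racgap1, chr15:99651657-99651856, minus strand: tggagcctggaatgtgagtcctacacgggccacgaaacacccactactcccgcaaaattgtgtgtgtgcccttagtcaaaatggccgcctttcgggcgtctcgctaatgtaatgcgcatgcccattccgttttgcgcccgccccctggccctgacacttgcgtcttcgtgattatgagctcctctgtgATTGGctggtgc
Bub1b, chr2:118598011-118598210, plus strand: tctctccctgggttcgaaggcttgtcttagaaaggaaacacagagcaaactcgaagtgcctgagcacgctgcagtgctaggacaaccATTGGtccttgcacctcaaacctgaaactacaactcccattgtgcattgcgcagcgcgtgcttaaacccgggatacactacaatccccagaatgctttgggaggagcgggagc
Pold2, chr11:5878257-5878456, minus strand: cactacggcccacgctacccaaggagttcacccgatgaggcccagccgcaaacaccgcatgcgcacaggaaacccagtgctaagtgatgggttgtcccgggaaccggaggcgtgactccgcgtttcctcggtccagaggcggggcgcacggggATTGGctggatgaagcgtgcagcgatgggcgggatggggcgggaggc
Mcm5, chr8:75109309-75109508, plus strand: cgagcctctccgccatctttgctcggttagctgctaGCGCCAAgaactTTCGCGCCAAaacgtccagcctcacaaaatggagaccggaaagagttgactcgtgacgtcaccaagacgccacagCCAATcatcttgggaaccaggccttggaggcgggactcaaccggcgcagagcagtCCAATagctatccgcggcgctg
In the 200 bases shown, Ncapd2 holds 3 CCAAT boxes, 1 cell cycle homology region and 1 E2F match. Racgap1, Bub1b and this Pold2 window hold 1 CCAAT box each. Mcm5 holds 2 CCAAT boxes and 3 E2F matches. The shares of whole lists were taken over the 250 bases before the start. Among 33 such upstream windows of the mitosis list 78.8% held a CCAAT box and 39.4% a cell cycle homology region. Of all 32851 windows of this length, 33.8% and 16.0% did. Among 38 windows of the replication list 63.2% held a CCAAT box and 21.1% an E2F match, against 33.8% and 3.1% of all windows, but 7.9% a cell cycle homology region, against 16.0%. A match describes letters and not binding, and nothing in these arrays measures binding.

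The arrays behind these lists were uneven. Ncapd2 was at 7.33, 7.71, 3.66 and 3.58 in Ts13 and at 8.56, 10.16 and 8.86 in Ts16. The 3'-biased Ts13 arrays were the low pair, and in the intact arrays the difference was -1.99 (limma, adjusted p = 0.0978). Mcm5 was at 8.02, 8.20, 5.57 and 6.02 against 8.89, 9.85 and 8.91, with the same pair low, and differed by -1.27 in the intact arrays (limma, adjusted p = 0.191). Pold2 was more even, at 8.39, 8.14, 7.61 and 7.56 against 9.30, 10.07 and 9.33. It differed by -1.43 in the intact arrays (limma, adjusted p = 0.083). Pold2 lost the threshold only without Ts16 replicate 2 (limma, adjusted p = 0.0817); Racgap1, Mcm5 and Ncapd2 passed under 3 and Bub1b under 4 of the 7 omissions.

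The mean of the mitosis list was 9.31, 9.03, 8.87 and 9.46 in Ts13 and 10.67, 11.28 and 9.40 in Ts16. Ts16 replicate 3 thus lay within the range of Ts13, and without it the median was -1.79 in place of -1.20. The controls differed in the same direction, at 9.59 to 10.12 for the Ts13 numbers and 9.61 to 11.01 for the Ts16 numbers. With controls subtracted the median was -0.54, and in the intact arrays it was -1.27 without and -0.21 with subtraction. The replication list gave 9.05, 8.99, 9.03 and 9.23 against 10.39, 10.51 and 8.98, where Ts16 replicate 3 was lowest of all. Its median was -0.75 in the intact arrays, -0.52 with controls subtracted, and -0.09 in the intact arrays with subtraction. Single Ts16 arrays moved these medians. The replication median was -1.44 without Ts16 replicate 3 and -0.56, with 32 of 35 lower, without Ts16 replicate 1. That of condensin and cohesin was -0.86 and, with 11 of 13 lower, -0.30 in the same order. Within the intact arrays, leaving out Ts16 replicate 2 brought the mitosis median to -0.26 and the replication median to 0.05, with 16 of 35 lower. No list had a gene past the threshold after subtraction. Whether the lower level reflects fewer dividing cells or less RNA per cell cannot be told apart in bulk RNA.

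**Figure D5:**
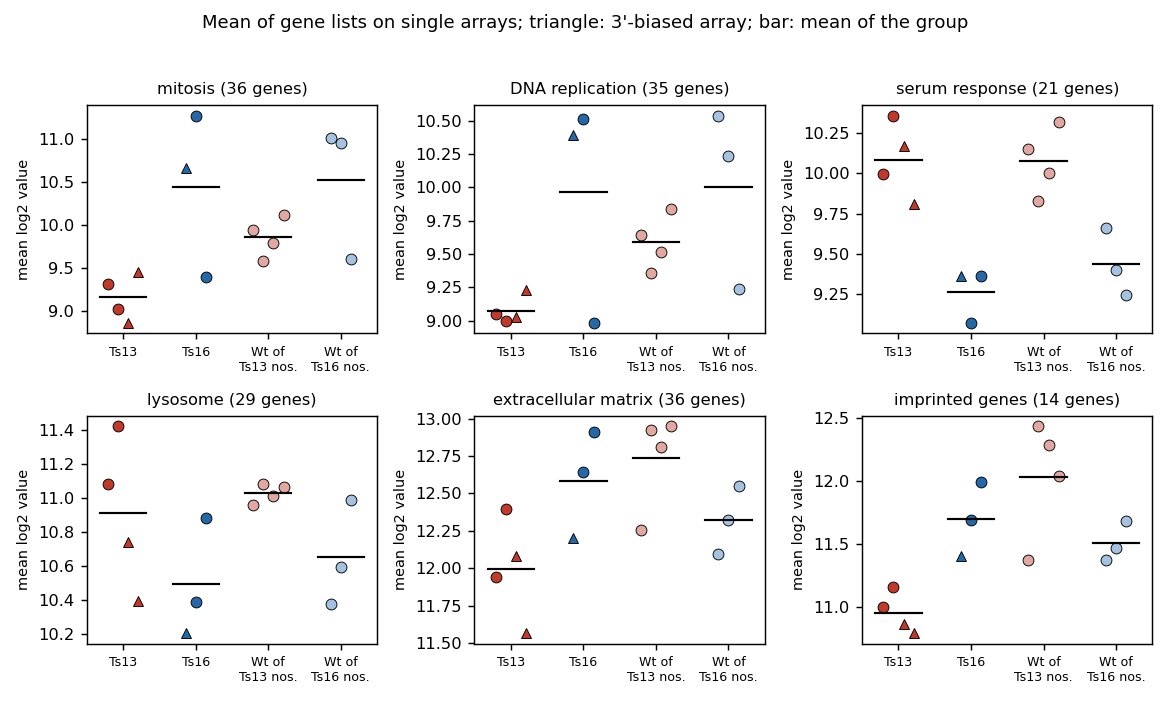
Mean log2 value (y axis) of 6 gene lists on single arrays of Ts13 (4), Ts16 (3) and the controls of either group's first numbers (4 and 3), with triangles for 3'-biased arrays and bars for group means; the y axes differ and do not start at 0. In the mitosis and replication panels 1 Ts16 array (9.40 and 8.98) lies with Ts13, and in the serum response panel the controls differ as the trisomies do.

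Other gene lists were read in the same way. For background, 52.7% of the 6862 genes outside chromosomes 13 and 16 were higher in Ts13 in the direct comparison. With controls subtracted 49.4% were, and in the intact arrays 60.6%. In the direct comparison 0.976% of them were called higher and 0.685% called lower. Of 21 immediate early genes induced by serum, 19 were higher in Ts13 with a median of 0.71, and the list mean was 9.81 to 10.36 in Ts13 against 9.07 to 9.36 in Ts16. The controls differed alike, by a median of 0.45, and with them subtracted the median was 0.30, while it was 0.94 in the intact arrays. Ier3, an early gene that acts on survival signalling, was the 1 call, at 12.26, 12.49, 12.05 and 12.05 against 10.75, 10.73 and 10.76 (1.47; limma, adjusted p = 0.0192; 1.17 with controls subtracted; 1.63 in the intact arrays, adjusted p = 0.0889). It did not pass without Ts16 replicate 2 (limma, adjusted p = 0.0866). Myc (1.38; limma, adjusted p = 0.087) and Egr1 (1.60; limma, adjusted p = 0.113) did not pass, and the value of Egr1 with controls subtracted was -0.33.

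Of 29 lysosomal genes 22 were higher in Ts13, with a median of 0.46 that became 0.15 with controls subtracted. Within the intact arrays 28 were higher, with a median of 0.54. When Ts16 replicate 2 was left out of these, 22 were higher, with a median of 0.22. Ctsh, the protease cathepsin H, was at 9.53, 9.44, 9.42 and 10.05 against 8.45, 7.36 and 7.12. It differed by 1.97 (limma, adjusted p = 0.0145; 2.25 in the intact arrays, adjusted p = 0.0407). Its highest value was on Ts13 replicate 4, the array with raised macrophage markers, and without that array the difference was 1.82 and still passed, while without Ts16 replicate 2 it did not (limma, adjusted p = 0.0825). Atp6v0b, a subunit of the proton pump, was the other call (1.37; limma, adjusted p = 0.0483) and passed under 1 of the 7 omissions.

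Genes of the extracellular matrix were lower in 25 of 36 cases, with a median of -0.41 and -0.50 with controls subtracted. The median was -0.22 without Ts16 replicate 3, -0.35 in the intact arrays and -0.22 in the intact arrays with controls subtracted. The 1 call was Fmod, a collagen-binding proteoglycan, at 9.34, 10.62, 11.53 and 9.59 against 12.95, 12.67 and 13.04. It differed by -2.62 (limma, adjusted p = 0.0488; -3.15 with controls subtracted; -2.87 in the intact arrays, adjusted p = 0.13), with no overlap, and passed under 1 of the 7 omissions. Decorin (Dcn), which binds collagen and TGF-beta, differed by -2.62 as well without passing (limma, adjusted p = 0.0793). In 10 of the 36 every Ts13 array lay below every Ts16 array, beside 3.93% of genes elsewhere. Among 18 matrix proteases and inhibitors 12 were higher, with a median of 0.26, but the calls were in the other direction, Timp3 and Mmp23 (-1.14; limma, adjusted p = 0.0475; 1 of 7 omissions); the median was -0.01 without Ts16 replicate 3 and with controls subtracted.

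Of 18 genes for the synthesis of cholesterol and fatty acids 14 were lower, with a median of -0.43 and none past the threshold; with controls subtracted 17 were lower and the median was -0.65. A single array set the direction without subtraction, since without Ts16 replicate 3 the median was 0.03, with 8 lower and 10 higher. The insulin-like growth factor genes (11) had a median of -0.26 that became -1.25 with controls subtracted, since the controls differed by 0.88 the other way, and none passed. Without Ts16 replicate 3 its median was -0.04, with 6 lower and 5 higher. Of 13 genes induced by interferon 11 were higher with a median of 0.47, against -0.19 with controls subtracted, and none passed. Without Ts16 replicate 1 the median was 0.20, with 7 higher and 6 lower. In turn 4 of 5 interferon and interleukin-10 receptor genes, most of them on chromosome 16, were lower with a median of -0.46 (-0.17 without Ts13 replicate 3) and no call (Ifnar2 at -0.70; limma, adjusted p = 0.115). Single calls stood in 3 further lists. They were Lif, a cytokine of the interleukin-6 family (3.19; limma, adjusted p = 0.0475), Eno3, the muscle enolase (1.57; limma, adjusted p = 0.0266), and Slc7a3, a transporter of cationic amino acids (-1.73; limma, adjusted p = 0.023), which passed under 2 or 3 of the 7 omissions. Their lists, of secreted inflammatory factors, glycolysis and the unfolded protein and amino acid response, had medians of 0.35 (0.10 to 0.91 with 1 array left out), 0.04 and -0.13. Lists for p53 targets, G1 regulators, TGF-beta, Wnt and Hedgehog signalling, Nrf2 targets, heat shock, the proteasome, the ribosome, the respiratory chain and Hox genes held no call, with medians from -0.35 to 0.22 beside 0.03 for all genes tested. Of 26 ribosomal genes 22 were lower. In the intact arrays 16 of 21 Nrf2 targets (median 0.43) and 23 of 29 proteasome genes (0.21) were higher, beside 60.0% of all genes (0.12). With controls subtracted the medians of Hox and of Wnt and Hedgehog genes were 0.40 and -0.53.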

How the data were processed

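Messenger RNA of 18 mouse embryo fibroblast lines was measured on 1 array each, with 22690 probe sets (64 controls). The deposited values are log2 expression values, made by the authors from the scanned arrays with affy and GCRMA (background correction, normalization and summary per probe set), per the submitters' processing notes, which name no version. The lowest value is 0.968 and the highest 16.57. Arrays give no counting depth, and their number limits the precision.

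Probe sets listed with exactly 1 gene (20393; 691 had several and 1606 none) were reduced to the one with the highest mean per gene, which gave 12394 genes, of which 12370 matched RefSeq (GRCm38.p6) for their chromosome, and 7382 with a mean of at least 4 were tested. GCRMA compresses differences of weakly expressed genes, and signal from near-identical genes cannot be separated.

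Differences were fitted with limma 3.58.1 in R 4.3.3 (lmFit, eBayes with trend; two-sided, Benjamini-Hochberg adjusted p under 0.05) with all 18 arrays in 5 groups (13 residual degrees of freedom). The difference of differences used 14 arrays with the first title number as a fixed effect (7 degrees of freedom), and the intact-array fit 15 arrays (10 degrees of freedom). An array was called 3'-biased where Gapdh signal at the 3' end exceeded that at the 5' end by over 3. Chromosome shifts were compared by exact permutation (scipy 1.17.1). The fit was tested on simulated data. Figures were drawn with matplotlib 3.10.9.

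The comparison, its members, the 28 gene lists and the markers were chosen with earlier results of these data known. Named genes are the largest differences past the threshold (up to 6 on chromosome 13, 6 on chromosome 16 and 10 in each direction elsewhere for all arrays; up to 6 and 4 likewise for the other fits, or the 3 of lowest p where none passed), up to 4 members of each list in order of p, and genes past the threshold in more than 1 fit. Alternatives were other filters, probe set rules, scalings, blocks, array subsets and leaving out each array; the comparison of controls alone was added after seeing the data.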

Additional observations from a re-analysis of the deposited data

Results flagged for a closer look

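Of 70 sets of 4 Ts13 values checked for a single array far from the other 3, 5 held one, where chance gives about 1 in 20. In each, the gap to the nearest other array exceeded Dixon's critical share of the range. For Apod, Ts13 replicate 3 was at 3.30 and the others at 2.53 to 2.63, all under the filter level. For B4galt4, Ts13 replicate 4 was at 3.46 and the others at 2.56 to 2.61, likewise. For Adh1, Ts13 replicate 3 was at 5.83 and the others at 3.76 to 4.09. For Ctsh, Ts13 replicate 4 was at 10.05 and the others at 9.42 to 9.53. For Pdia5, a disulfide isomerase gene of chromosome 16, Ts13 replicate 2 was at 11.70 and the others at 11.39 to 11.43. Replicates 3 and 4 are the 3'-biased Ts13 arrays; their part in these values was not tested.

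Ptx3 moved in opposite directions from its controls in the trisomies, by -2.24 in Ts13 and 1.06 in Ts16, and the difference of -3.30 passed limma's test of the difference itself (adjusted p = 0.0403). No other gene did.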

How the results depend on the processing

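The direct comparison called 179 genes. It called 112 with 14 arrays in 3 groups, 425 with the Gapdh difference as a covariate and 2 with the 7 arrays alone, neither of them among the 179. With the replicate number as a block over the same 7 arrays, which left 2 residual degrees of freedom, it called 0 (431 at an unadjusted p under 0.05). Taken as deviations from the group mean, same-numbered arrays correlated at -0.73, 0.41 and -0.45. The 3'-biased Ts16 replicate 1 correlated at 0.62 and 0.80 with the 3'-biased Ts13 replicates 3 and 4. With the intact Ts13 replicates 1 and 2 it correlated at -0.73 and -0.77. The signs thus go with RNA quality, so these correlations cannot show a pairing. The labels state none: replicate numbers run within each group, and same-numbered Ts13 and Ts16 arrays differ in their first title number. Results with the replicate block therefore have no basis in the labels and are given only as a variant of the fit. Leaving out single arrays gave 26 to 352. The difference of differences called 1 gene, and 2 without the filter. It called 0 with the mean of all probe sets, centred arrays, quantile normalization or no trend (472, 561, 565 and 480 at an unadjusted p under 0.05). It also called 0 with the first title number left out of the model or used as a random block (487 and 420 unadjusted). Single omissions gave 0 to 2 (279 to 939 unadjusted where 0). The intact arrays called 27 genes, 43 without the filter, 48 with the mean of all probe sets, 47 when centred, 44 after quantile normalization, 50 with the 4 arrays alone and 0 to 9 with 1 array left out. Of the 50 genes called with the 4 arrays alone, 12 were among the 27. The chromosome shifts kept their direction in every alternative run: 0.52 to 0.75 for chromosome 13 and -0.72 to -0.65 for chromosome 16 with 1 array left out, 0.56 and -0.72 within replicate numbers (replicate block), and 0.41 and -0.43 without the filter. No chromosome shift or named call changed sign, but with 1 array left out 29.9% to 75.0% of all calls were higher in Ts13. Several list medians changed sign with 1 array left out. In the direct comparison they included cholesterol (0.03) and matrix proteases (-0.01) without Ts16 replicate 3. Without Ts16 replicate 2 they included Hox genes (0.09) and the proteasome (0.09). In the intact arrays they included replication (0.05) without Ts16 replicate 2 and insulin-like growth factor genes (0.21) without Ts16 replicate 3. Over 64 named calls of the direct comparison, 744 of 1077 alternative values stayed past the threshold and 333 kept the sign only. The medians of the mitosis, replication, serum response, lysosome, matrix and imprinted lists kept their sign under centring, quantile normalization and the Gapdh covariate. Genes near background, with low values in 1 group, have compressed differences. The causes of these changes were not tested.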

Other observations

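In the direct comparison 34 of the 243 tested genes of chromosome 16 were higher in Ts13, against their copy number, among them a run of 3 neighbouring genes. These 3 were chosen after their values were seen and none passed in limma. St6gal1, a sialyltransferase, was at 7.44, 7.65, 8.30 and 8.83 in Ts13 and at 8.08, 4.28 and 4.46 in Ts16, a difference of 2.45 (adjusted p = 0.122). Masp1, a complement protease, differed by 2.26 (limma, adjusted p = 0.0738) and Rtp4, an interferon-induced chaperone of receptors, by 2.40 (limma, adjusted p = 0.186). With controls subtracted the values were 2.84, 0.45 and -0.01.

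Of the 21 genes that passed in limma whichever of the 7 arrays was left out, 8 fall outside the naming rule. They are Crip1 (-1.97), the fatty acid elongase gene Elovl6 (-1.29), Gpx7 (-1.28) and the tendon gene Tnmd (-1.89) on other chromosomes, Itsn1, an endocytic scaffold (-1.18), Pam16, part of the mitochondrial import motor (-0.83), and Tmem39a (-1.68) on chromosome 16, and Vps41 (1.22) on chromosome 13. Tnmd was at 9.29, 10.07, 10.48 and 9.12 in Ts13 and at 12.13, 11.31 and 11.46 in Ts16, with no overlap.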
